A study of Mus musculus with 36 samples.

Results

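The 10 genes described here are the transcription factors and mesenchymal markers most often read as signs of epithelial-to-mesenchymal transition (EMT): Snai1, Snai2, Twist1, Twist2, Zeb1, Zeb2 and Prrx1, and the products Vim, Cdh2 and Fn1. They were chosen by name from the 21650 genes of the table, and all 10 were measured in every library. The study grew mouse mammary tumors inside the ducts of syngeneic mice and profiled RNA of the tumors, and of control glands, by sequencing at weeks 1, 3 and 6 after inoculation. 4T1, a metastatic line that arose in BALB/c mice and carries firefly luciferase, was injected through the teat canal of lactating BALB/c females. Py230, a line grown from spontaneous tumors of MMTV-PyMT mice, was injected in the same way into C57BL/6 females, labelled with no transgene of their own. Control glands of each strain received Matrigel, the basement membrane gel in which the cells were suspended. All females had their pups removed shortly before injection, so that every gland, control glands included, was involuting after lactation. The 12 groups (2 tumors and 2 kinds of control gland at 3 time points) held 3 libraries each, 36 in all, and the labels number the tumors and glands without stating that each came from a separate mouse, so that p-values measure the spread between these samples. Each tumor model is 1 cell line in 1 strain, injected at a cell number of its own, so line, strain and inoculum cannot be told apart in a comparison of tumors.

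In EMT, cells that held together as an epithelium lose E-cadherin junctions and polarity and take on the cytoskeleton, matrix and motility of mesenchymal cells. Snail (Snai1, Snai2) and Zeb (Zeb1, Zeb2) are zinc finger proteins that bind E-box sequences and repress epithelial genes such as Cdh1, while Twist1 and Twist2 are basic helix-loop-helix factors and Prrx1 is a homeobox factor of mesenchyme. Vimentin, N-cadherin (Cdh2) and fibronectin (Fn1) are the intermediate filament, the adhesion molecule and the matrix protein whose gain is commonly scored. In a mammary gland none of the 10 is private to carcinoma cells: fibroblasts express Prrx1, Twist1, Twist2, Vim and Fn1, macrophages express Zeb2 and Vim, and basal (myoepithelial) cells express Snai2. In RNA of whole tumors and glands, fewer cells of a type and less RNA per cell cannot be told apart.

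The deposited value of a gene is a standardized score: in every library the scores of the 21650 genes average 0 with a standard deviation (SD) of 1, so a difference of 1 is 1 SD of the spread over genes. Scores are not divided by gene length, so levels are compared between groups and never between genes, and a difference of scores is not a fold change. Read depth was unknown from these values, and no counting interval could be given. A gene was called where the adjusted p of limma, over all 21650 genes, was under 0.05. The exact permutation test of 3 libraries against 3, which could not go below p = 0.1, was not used. Among the libraries, Py230 week 3 replicate 1 stood apart in its group: its mean adipocyte marker score was 0.395 against 1.72 and 1.98 in the others. Its mean skeletal muscle marker score was -0.641 against 0.764 and 2.35. That muscle score varied as widely in some other groups, such as 1.68, 2.9 and -0.476 in C57BL/6 glands at week 1. 4T1 week 3 replicate 1 also differed from the other two of its group, with a mean adipocyte marker score of 0.704 against 1.97 and 2.14 and a mean lymphocyte and neutrophil marker score of 0.38 against -0.283 and -0.187. Results that rest on either are given with and without it. Without the 4T1 library the calls between the tumors at week 3 were 7 in place of 6, Twist1 being added.

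**Figure D1:**
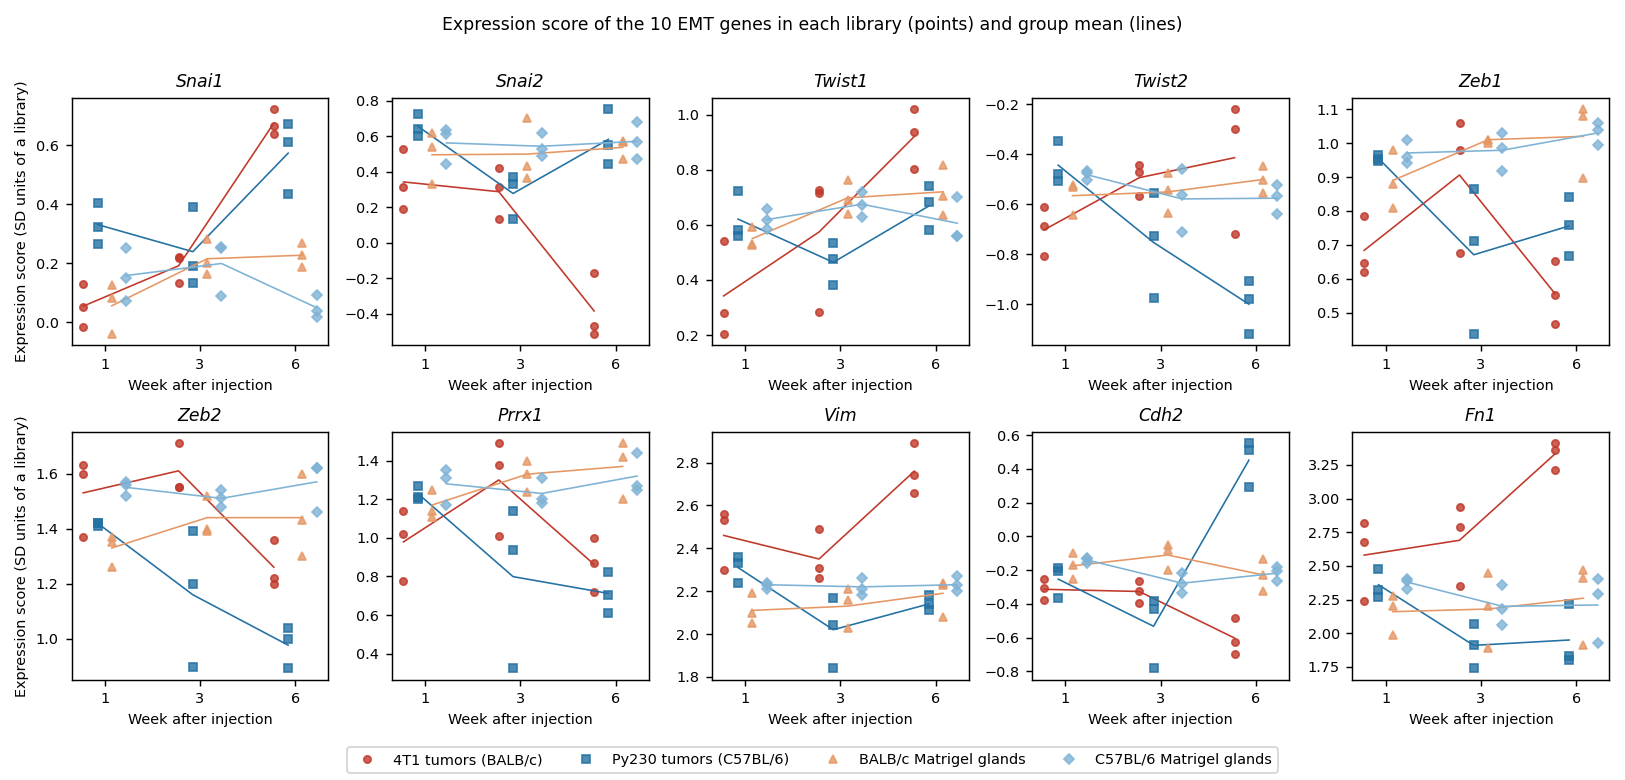
Standardized score of each of the 10 genes (vertical axis, in SD units of a library's spread over genes) at weeks 1, 3 and 6 (horizontal axis) in 4T1 tumors, Py230 tumors and Matrigel glands of both strains; points are libraries and lines join group means of 3. Gland libraries stay in a narrow band in each panel. Week 6 4T1 tumors lie above it for Snai1, Vim and Fn1 and below it for Snai2, Zeb1, Prrx1 and Cdh2. Week 6 Py230 tumors lie above it for Snai1 and Cdh2 and below it for Twist2, Zeb2 and Prrx1.

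The first question was how the 10 genes differed between 4T1 and Py230 tumors as both went from confined to invasive growth. At week 1, 4 of the 10 were lower in 4T1 tumors and none was higher, where 19.4% of all genes were called and 8.43% were lower: Snai1, Snai2, Twist1 and Zeb1. At week 3, 6 were higher and none was lower, where 30.3% of all genes were called and 11.9% were higher: Twist2, Zeb1, Zeb2, Prrx1, Vim and Fn1. At week 6, 7 were called, where 40.8% of all genes were: 5 (Twist1, Twist2, Zeb2, Vim and Fn1) were higher in 4T1 tumors, as were 24.1% of all genes, and 2 (Snai2 and Cdh2) were lower, as were 16.7%. The median difference of the 10 was -0.253, 0.247 and 0.202 at the 3 weeks, against 0.00552, -0.0112 and 0.0364 over all genes. The 10 genes thus did not move as a block: only Twist2, Zeb2, Vim and Fn1 kept a positive sign with a called difference at both later weeks. In the 3 libraries of each line the tumors did not overlap for 6 of the genes at week 1, for 3 at week 3 and for 8 at week 6, where 39.1%, 32.6% and 58.2% of all genes did not overlap.

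**Figure D2:**
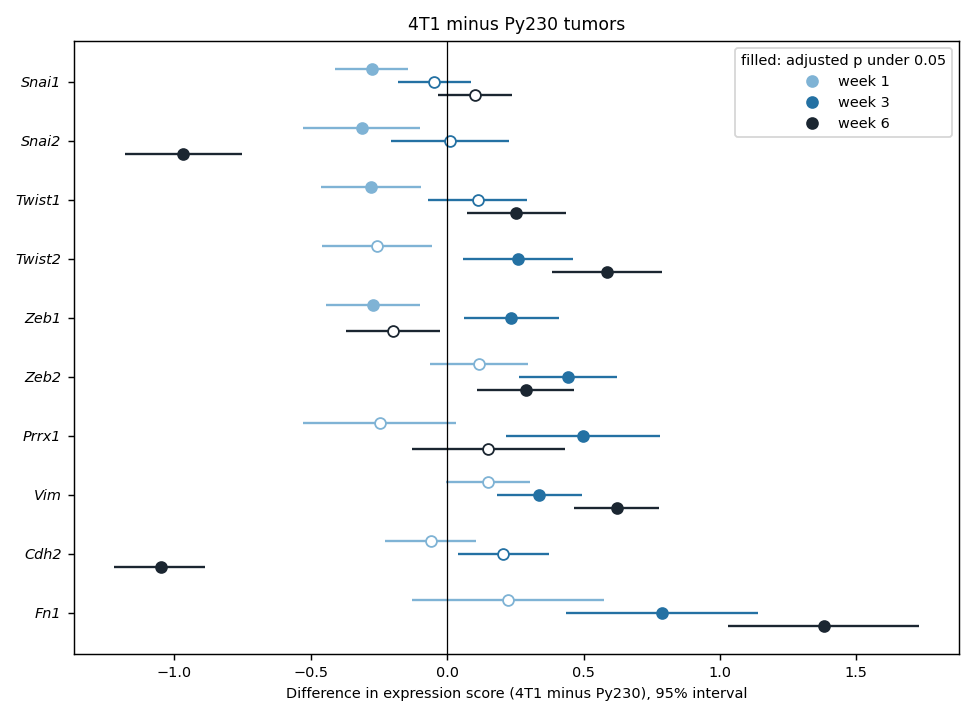
Difference in score, 4T1 minus Py230 tumors (horizontal axis, SD units), for each of the 10 genes at weeks 1, 3 and 6, with bars for the 95% confidence interval from limma; filled points have an adjusted p under 0.05. Fn1, Vim, Snai1, Twist1 and Twist2 lie further to the right at each later week, while Snai2 and Cdh2 lie far to the left at week 6.

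The calls differed in how much they leaned on single libraries and on the fit. When each of the 6 libraries of a comparison was left out in turn, Snai1 at week 1, Zeb2, Vim and Fn1 at week 3, and Snai2, Twist2, Vim, Cdh2 and Fn1 at week 6 were called all 6 times. Without Py230 week 3 replicate 1, the week 3 calls of Prrx1 (difference 0.26, adjusted p = 0.123), Zeb1 (0.118, adjusted p = 0.354) and Twist2 (0.147, adjusted p = 0.353) were lost, and Cdh2 (0.278, adjusted p = 0.0278) was called. With only the 2 tumor groups of week 3 in the fit, in place of all 12 groups, none of the 6 genes was called at that week. At week 1 the same change left 2 of the 4 calls. Snai1 was the only one of the 4 still called at week 1 without 4T1 replicate 1 or 3, and 3 genes were called at week 3 without 4T1 replicate 2. At week 6 the Zeb2 call was lost without 4T1 replicate 2 or Py230 replicate 1 (adjusted p up to 0.0599), and the Twist1 call without 4T1 replicate 1 or 2 or Py230 replicate 3 (adjusted p up to 0.119).

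Snai1 encodes Snail, a repressor of E-cadherin and an early inducer of EMT (ENSMUSG00000042821, chr2:167538195-167542814, plus strand, mm10). Its score in 4T1 tumors was -0.0168, 0.131 and 0.052 at week 1, 0.134, 0.222 and 0.218 at week 3, and 0.667, 0.723 and 0.638 at week 6. In Py230 tumors it was 0.267, 0.324 and 0.405, then 0.391, 0.193 and 0.135, then 0.674, 0.612 and 0.435. Week 1 was the one time at which the lines were apart, with every 4T1 library under every Py230 library (difference -0.277 ± 0.0654 (SE), adjusted p = 0.00483). At week 6 the ranges overlapped, and the difference of 0.102 (95% interval -0.0322 to 0.237, adjusted p = 0.228) was not called. From week 3 to 6 Snai1 rose by 0.484 in 4T1 tumors (adjusted p = 1.03e-06) and by 0.334 in Py230 tumors (adjusted p = 0.00216), and both tumors lay above their glands at week 6. Py230 libraries of week 1 already lay above C57BL/6 glands of that week (0.0719, 0.152 and 0.254), without overlap and without a call. At week 3 Py230 libraries and their glands overlapped. Of the 18 gland libraries none passed 0.283, and all 6 week 6 tumor libraries lay above that value.

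The window before the Snai1 start site is shown because Snail proteins bind the E-box, and because Snai1 was the one transcription factor of the 10 that was above glands at week 6 in both tumors. It is the 250 bases ahead of the RefSeq start (GRCm38.p6, chr2:167537945-167538194, plus strand), with capitals for an E-box and a CCAAT box, both on the opposite strand.
Snai1: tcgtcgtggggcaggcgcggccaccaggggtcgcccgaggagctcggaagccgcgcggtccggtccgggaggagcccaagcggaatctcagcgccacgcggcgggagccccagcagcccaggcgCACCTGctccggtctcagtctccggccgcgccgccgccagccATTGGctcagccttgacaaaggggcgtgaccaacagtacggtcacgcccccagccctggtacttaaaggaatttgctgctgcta
The E-box (CAGGTG, or CACCTG on the other strand) begins 126 bases before the start, and 17.2% of 32851 mouse promoter windows of that length hold it on either strand. The CCAAT box (ATTGG on the other strand) begins 84 bases before the start and is found in 33.8% of windows. A match of letters is a description and does not show that a protein binds there.

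Snai2 encodes Slug, which in the mammary gland is a factor of basal cells as well as an EMT inducer (ENSMUSG00000022676, chr16:14705852-14709385). The widest movement of any factor here was its loss in late 4T1 tumors. Scores at week 6 were -0.47, -0.516 and -0.171 in 4T1 tumors (mean -0.385 ± 0.187 SD, n = 3) and 0.548, 0.752 and 0.445 in Py230 tumors, a difference of -0.967 ± 0.105 (SE, adjusted p = 2.71e-08). The glands of both strains spanned 0.331 to 0.7 over all weeks, so Py230 tumors sat near that band and every 4T1 library was below zero. The week 6 mean of 4T1 tumors was also the lowest of the 12 groups, and differed from the next lowest, Py230 tumors at week 3 (0.277), with an adjusted p of 9.25e-06. From week 3 to 6 Snai2 fell by 0.673 in 4T1 tumors (adjusted p = 7.51e-06), whereas the Py230 value over that interval was 0.304 (adjusted p = 0.0835). The change of the difference between the lines was itself called (-0.977, 95% interval -1.28 to -0.673). At week 1 the 4T1 libraries (0.311, 0.525 and 0.19) were below those of Py230 (0.724, 0.603 and 0.64; adjusted p = 0.0361), a call that held in 1 of 6 fits with a library left out. Snai2 in Py230 tumors fell from week 1 to 3 (-0.378, adjusted p = 0.0131), and without Py230 week 3 replicate 1 that value was -0.306 (adjusted p = 0.137).

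Snai1 and Snai2, close paralogs, therefore stood on opposite sides of the glands in 4T1 tumors at week 6. The difference from BALB/c Matrigel glands was 0.448 for Snai1 (adjusted p = 2.36e-06) and -0.923 for Snai2 (adjusted p = 5.13e-08). In Py230 tumors it was 0.524 for Snai1 (adjusted p = 7.54e-07) and 0.0104 for Snai2 (95% interval -0.205 to 0.225). The mean score of 8 pericyte, smooth muscle and myoepithelial markers was 0.287 to 0.786 in the same 4T1 libraries and 1.45 to 1.6 in BALB/c glands, with 6 of the 8 markers lower. Whether fewer basal cells had a part in the Snai2 value was not tested.

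Twist1 (ENSMUSG00000035799, chr12:33957671-33959829), a factor of mesoderm whose gain in carcinoma cells is tied to invasion and metastasis, crossed over between the lines. At week 1 its scores in 4T1 tumors, 0.203, 0.543 and 0.28, were below those in Py230 tumors, 0.723, 0.583 and 0.558 (difference -0.279, adjusted p = 0.0287). At week 3 the values were 0.282, 0.726 and 0.716 against 0.382, 0.475 and 0.533, with overlap and no call (0.111, adjusted p = 0.373), though without 4T1 week 3 replicate 1 the difference was 0.257 and called (adjusted p = 0.0145). At week 6 4T1 libraries (0.936, 1.02 and 0.804) were all above Py230 libraries (0.682, 0.74 and 0.581; difference 0.253, adjusted p = 0.0237). The calls at weeks 1 and 6 each held in 3 of 6 fits with a library left out. The crossing itself, week 6 difference less week 1 difference, was 0.533 (95% interval 0.274 to 0.791) and was called. Within 4T1 tumors Twist1 rose by 0.347 from week 3 to 6 (adjusted p = 0.00193). That change was 0.2 without 4T1 week 3 replicate 1 and lost its call with only the groups of the comparison in the fit (adjusted p = 0.0813). Against BALB/c glands at week 6 Twist1 gave 0.201 and was not called (adjusted p = 0.0534).

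Twist2 (Dermo1, ENSMUSG00000007805, chr1:91801461-91848028), marks dermal and other connective tissue. It had a mean normalized count of 47 in the week 1 table, the 1 gene of the 10 under the minimum of 100 that an alternative filter set. Its scores at week 6 were -0.301, -0.721 and -0.22 in 4T1 tumors and -1.12, -0.907 and -0.979 in Py230 tumors, without overlap (difference 0.586, adjusted p = 2.44e-05). The gap came with a low Py230 level: gland libraries spanned -0.713 to -0.446, every week 6 Py230 library was below that band, and the 4T1 value against BALB/c glands was 0.0873 (adjusted p = 0.457). Py230 tumors were 0.425 below C57BL/6 glands (-0.425, adjusted p = 9.47e-04). Twist2 in Py230 tumors had fallen from week 1 to 3 (-0.309, adjusted p = 0.0285), a value of -0.197 (adjusted p = 0.304) without replicate 1 of week 3. The line difference changed from -0.259 at week 1 to 0.259 at week 3 and 0.586 at week 6. Its change from week 1 to 6 was 0.845, called in all 12 fits with a library left out.

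The windows ahead of both Twist genes are set side by side because both paralogs were called between the lines at week 6. They are the 250 bases before the RefSeq starts (GRCm38.p6, plus strand), Twist1 at chr12:33957421-33957670 and Twist2 at chr1:91801211-91801460, with capitals for a TATA box (TATAAA), the same CCAAT box as above and the GC box (GGGCGG, or CCGCCC on the other strand).
Twist1: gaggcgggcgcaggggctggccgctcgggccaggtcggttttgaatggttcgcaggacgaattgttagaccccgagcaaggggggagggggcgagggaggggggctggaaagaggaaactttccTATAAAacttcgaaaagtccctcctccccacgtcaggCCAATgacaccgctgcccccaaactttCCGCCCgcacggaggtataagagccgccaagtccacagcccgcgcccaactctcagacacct
Twist2: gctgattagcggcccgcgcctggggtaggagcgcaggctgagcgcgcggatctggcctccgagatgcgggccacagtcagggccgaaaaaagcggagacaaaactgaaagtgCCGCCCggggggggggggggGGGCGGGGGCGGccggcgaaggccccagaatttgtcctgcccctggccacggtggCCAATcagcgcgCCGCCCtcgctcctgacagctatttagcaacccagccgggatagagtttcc
Twist1 holds TATAAA beginning 126, CCAAT 89 and 1 GC box 62 bases before its start. Twist2 holds no TATAAA in this window, 1 CCAAT 63 bases before its start and 4 GC boxes, of which those at 118 and 112 abut. Among all windows, 12.4% hold TATAAA or TTTATA and 32.7% hold a GC box. Neither window holds the E-box found ahead of Snai1. RefSeq windows were at hand for 6 of the 10 genes.

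Zeb1 and Zeb2 repress epithelial genes and the miR-200 family, which in turn represses them. Zeb1 (ENSMUSG00000024238) was tightly held in glands, 0.81 to 1.1 over 18 libraries, and at week 6 it was lower in both tumors than in their glands. All 4T1 libraries of week 1 already lay below the gland span, though Zeb1 was not called against BALB/c glands at that week. At week 1 Zeb1 was 0.621, 0.784 and 0.646 in 4T1 tumors, all below 0.965, 0.947 and 0.953 in Py230 tumors (difference -0.271, adjusted p = 0.0253). At week 3 the order of the lines turned: 0.677, 1.06 and 0.979 in 4T1 tumors against 0.437, 0.713 and 0.864 in Py230 tumors (0.235, adjusted p = 0.0355), with overlap. At week 6 it was 0.552, 0.468 and 0.652 against 0.76, 0.841 and 0.668, a difference of -0.199 that was not called (adjusted p = 0.061). The change of the Zeb1 difference was called in both intervals, 0.506 from week 1 to 3 and -0.434 from week 3 to 6, and also without Py230 week 3 replicate 1 (0.389, adjusted p = 0.0367, and -0.317, adjusted p = 0.0367). Against their own glands at week 6, 4T1 tumors were 0.466 lower (-0.466, adjusted p = 4.06e-05) and Py230 tumors 0.275 lower (-0.275, adjusted p = 0.00878).

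Zeb2 (ENSMUSG00000026872, chr2:44983632-45117395), which macrophages express strongly, exceeded its Py230 level in 4T1 tumors at the later weeks. At week 3 it was 1.71, 1.55 and 1.55 in 4T1 tumors and 0.897, 1.2 and 1.39 in Py230 tumors, without overlap (difference 0.442, adjusted p = 4.39e-04; without Py230 week 3 replicate 1, 0.308, adjusted p = 0.00873). At week 6 it was 1.2, 1.36 and 1.22 against 0.893, 1 and 1.04, again without overlap (0.287, adjusted p = 0.00961). Both lines had by then moved down from week 3 or week 1: Zeb2 fell by 0.342 in 4T1 tumors from week 3 to 6 (adjusted p = 0.00185) and by 0.252 in Py230 tumors from week 1 to 3 (adjusted p = 0.0417; -0.118, adjusted p = 0.462, without replicate 1 of week 3). Week 6 Py230 tumors were 0.593 below C57BL/6 glands (-0.593, adjusted p = 6.30e-06), and the 4T1 value against BALB/c glands was -0.177 (adjusted p = 0.0821). At week 3 the 7 macrophage markers were all higher in 4T1 tumors too, with mean scores of 1.56 to 2.17 against 1.14 to 1.3 in Py230 tumors. At week 6 none of the 7 was called, but their mean scores were higher in 4T1 tumors without overlap, 1.45 to 1.5 against 1.26 to 1.37. The part of macrophages in the Zeb2 differences of weeks 3 and 6 was not tested.

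Prrx1 (ENSMUSG00000026586, chr1:163245119-163313710), a homeobox factor of mesenchyme and fibroblasts, was lower in late tumors of both lines than in glands. Its scores were 0.777, 1.14 and 1.02, then 1.01, 1.49 and 1.38, then 0.871, 0.719 and 0.997 in 4T1 tumors at weeks 1, 3 and 6. In Py230 tumors they were 1.27, 1.21 and 1.2, then 0.324, 0.938 and 1.14, then 0.612, 0.821 and 0.702. The 18 gland libraries spanned 1.11 to 1.49, and all 6 week 6 tumor libraries lay below that span. The difference from glands at week 6 was -0.511 for 4T1 (adjusted p = 0.00241) and -0.611 for Py230 (adjusted p = 6.88e-04). Between the lines Prrx1 was called at week 3 alone (0.497, adjusted p = 0.00725), with 4 of 6 fits keeping the call and the lowest score, 0.324, in Py230 replicate 1. In these 2 groups the mean score of 9 fibroblast markers was 1.91 to 2.08 in 4T1 and 1.41 to 1.82 in Py230 tumors, with 4 of 9 markers higher in 4T1. From week 1 to 3 Prrx1 fell by 0.427 in Py230 tumors (adjusted p = 0.0291) as 8 of the 9 fibroblast markers did, and from week 3 to 6 it fell by 0.434 in 4T1 tumors (adjusted p = 0.00954) with 5 of the 9. The first of these was -0.19 (adjusted p = 0.402) without Py230 week 3 replicate 1, and the second was lost without 4T1 replicate 2 of week 3 or of week 6, with an adjusted p of up to 0.0684. The part of fibroblasts in these values was not tested.

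Vimentin and fibronectin were the 2 products whose 4T1 minus Py230 difference was more positive at each later week. The change of that difference was called for both from week 1 to 6 and for neither from week 1 to 3. From week 3 to 6 it was called for Vim and not for Fn1, and for Vim in 3 of 12 fits with a library left out. Vim (ENSMUSG00000026728, chr2:13573927-13582826), the intermediate filament of mesenchymal cells, was 2.56, 2.3 and 2.53 in 4T1 and 2.24, 2.33 and 2.36 in Py230 tumors at week 1, with overlap (0.149, adjusted p = 0.162). At week 3 it was 2.49, 2.31 and 2.26 against 1.84, 2.04 and 2.17 (0.338, adjusted p = 0.0014), and at week 6 2.74, 2.89 and 2.66 against 2.14, 2.18 and 2.11 (0.621, adjusted p = 1.90e-07). Neither later week had overlapping libraries. Over 18 glands Vim spanned 2.03 to 2.27, and all 4T1 libraries of weeks 1 and 6 were above that. Vim was the only one of the 10 called against BALB/c glands at week 1 (0.349, adjusted p = 0.00667), a call lost without 4T1 replicate 1 or 3 or gland replicate 2 (adjusted p up to 0.145 over the alternatives). It was 0.576 higher at week 6 (adjusted p = 4.79e-07). In the week 1 comparison 6 of 7 macrophage markers were higher too, with mean scores of 1.68 to 2.08 in 4T1 tumors and 1.1 to 1.6 in BALB/c glands. All 7 exceeded Py230 tumors at week 3, and none of the 7 was called between the lines at week 6. Their mean scores at week 6 were still higher in 4T1 tumors without overlap, 1.45 to 1.5 against 1.26 to 1.37 in Py230 tumors. The correlation of Vim with Zeb2 was 0.813 within groups over 36 libraries and 0.187 over the 12 group means. In 4T1 tumors the mean macrophage marker score was 1.92 at week 1 and 1.47 at week 6, while mean Vim was 2.46 and 2.76. The part of macrophages in the Vim values was not tested. The highest group mean, 4T1 at week 6 (2.76 ± 0.114 SD), differed from the next, 4T1 at week 1 (2.46), with an adjusted p of 0.00187. In Py230 tumors Vim fell by 0.295 from week 1 to 3 (adjusted p = 0.00796; -0.207, adjusted p = 0.131, without replicate 1 of week 3), and at week 6 its value against C57BL/6 glands was -0.0932 (adjusted p = 0.325).

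Fn1 (ENSMUSG00000026193, chr1:71585520-71653200) encodes a matrix glycoprotein bound by integrins. Its scores in 4T1 tumors were 2.82, 2.24 and 2.68 at week 1, 2.94, 2.79 and 2.35 at week 3 and 3.41, 3.21 and 3.36 at week 6. In Py230 tumors they were 2.27, 2.32 and 2.48, then 1.74, 1.91 and 2.07, then 1.83, 2.22 and 1.8. The lines overlapped at week 1 and not later, with differences of 0.223 (adjusted p = 0.376), 0.788 (adjusted p = 0.00109) and 1.38 (adjusted p = 2.88e-07). Without Py230 week 3 replicate 1 the week 3 difference was 0.706 (adjusted p = 0.0122). The 1.38 at week 6 was the widest difference of the 10 genes, and its 95% interval ran from 1.03 to 1.73. It came with a rise of 0.632 in 4T1 tumors from week 3 to 6 (adjusted p = 0.00311), to 1.06 above BALB/c glands (adjusted p = 9.52e-06). Py230 tumors at week 6 gave -0.257 against C57BL/6 glands (95% interval -0.609 to 0.0949). Gland libraries spanned 1.89 to 2.47, below every week 6 4T1 library.

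Cdh2, N-cadherin (ENSMUSG00000024304), went the other way. At week 6 its scores were -0.698, -0.624 and -0.486 in 4T1 tumors (-0.603 ± 0.107 SD) and 0.512, 0.551 and 0.292 in Py230 tumors (0.451 ± 0.14 SD), a difference of -1.05 ± 0.0815 (SE, adjusted p = 5.69e-11). The week 6 Py230 mean stood alone at the top: the next of the 12 group means was that of BALB/c glands at week 3, -0.111 (adjusted p of the step 5.32e-06), and the 18 gland libraries spanned -0.334 to -0.0504. Cdh2 rose by 0.984 in Py230 tumors from week 3 to 6 (adjusted p = 3.15e-08; 1.06 without replicate 1 of week 3) and fell by 0.275 in 4T1 tumors over the same interval (adjusted p = 0.00613). Before that rise it had fallen by 0.279 in Py230 tumors from week 1 to 3 (adjusted p = 0.0177), to scores of -0.386, -0.782 and -0.43, a call kept in 3 of 6 fits with a library left out. Without Py230 week 3 replicate 2 that change was -0.155 (adjusted p = 0.169). Against own glands at week 6, Cdh2 was 0.669 higher in Py230 (adjusted p = 5.48e-07) and 0.373 lower in 4T1 tumors (-0.373, adjusted p = 3.44e-04). At week 1 the lines gave -0.0603 (95% interval -0.228 to 0.107) and at week 3 0.205 (adjusted p = 0.0574). Of the 3 mesenchymal products, Vim and Fn1 were thus above own glands in late 4T1 tumors and Cdh2 in late Py230 tumors.

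Each tumor was also set against glands of its own strain and week. The tissues differed in cell markers too: the mean adipocyte marker score at week 6 was -0.0982 in 4T1 tumors and 1.85 in BALB/c glands. In 4T1 tumors 1 of the 10 genes was called at week 1 (16.6% of all genes, 9.91% higher), where limma gave an unadjusted p under 0.05 for 5. None was called at week 3 (3.25% of all genes), where limma gave an unadjusted p under 0.05 for 3. At week 6, 7 were called (60.1% of all genes, 38.6% higher and 21.5% lower), with Snai1, Vim and Fn1 higher and Snai2, Zeb1, Prrx1 and Cdh2 lower. In Py230 tumors none was called at week 1 (0.00924% of all genes), where 1 had an unadjusted p under 0.05. At week 3, 4 were lower (19.7% of all genes were called, 6.9% lower): Zeb1, Zeb2, Prrx1 and Cdh2. At week 6, 6 were called (47.6% of all genes, 28.8% higher and 18.7% lower), Snai1 and Cdh2 higher and Twist2, Zeb1, Zeb2 and Prrx1 lower. The week 3 calls in Py230 tumors leaned on single libraries: without tumor replicate 1 Cdh2 alone was called (-0.328, adjusted p = 0.0282), without tumor replicate 2 Cdh2 was -0.13 (adjusted p = 0.255), without gland replicate 2 or 1 the count was 1 or 2, and without tumor replicate 3 it was 7. With only the groups of the comparison in the fit none of the 4 was called, nor was Vim in 4T1 tumors at week 1, where leaving out 4T1 replicate 2 brought 5 calls. At week 3 in 4T1 tumors 2 genes were called without tumor replicate 3. These comparisons share their tumor libraries with the comparison of the lines.

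**Figure D3:**
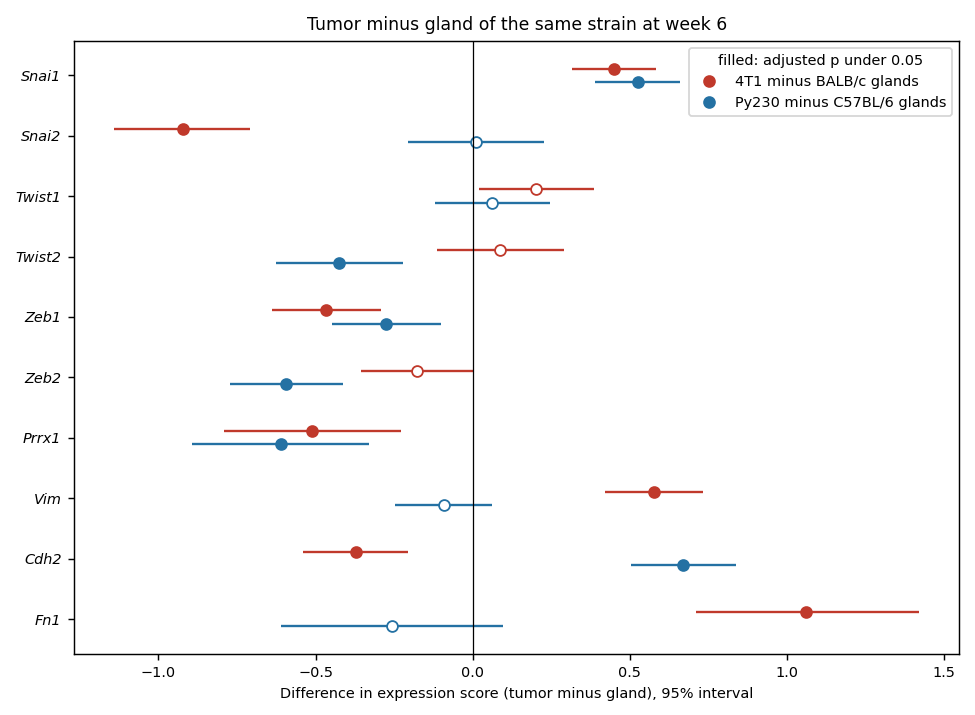
Difference in score at week 6, tumor minus Matrigel glands of the same strain (horizontal axis, SD units), for each of the 10 genes in 4T1 and Py230 tumors, with bars for the 95% confidence interval from limma and filled points for an adjusted p under 0.05. Snai1 is higher and Zeb1 and Prrx1 lower in both tumors, while Fn1 and Vim are higher in 4T1 and Cdh2 is higher in Py230 and lower in 4T1 tumors.

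The strains themselves gave no called difference among the 10 genes. Between BALB/c and C57BL/6 Matrigel glands 0 of 10 were called by limma at weeks 1, 3 and 6 (3.06%, 3.77% and 3.84% of all genes), with an unadjusted p under 0.05 for 1, 0 and 1 gene. They were Zeb2 at week 1 (-0.223, adjusted p = 0.24) and Snai1 at week 6 (0.178, adjusted p = 0.162). With the strain difference of the glands subtracted from the difference of the tumors, none of the 10 was called at week 1 (0.305% of all genes; 2 with an unadjusted p under 0.05). At week 3, Zeb2, Vim and Fn1 were called and higher (9.15% of all genes were called, 2.64% higher). At week 6, 6 were called (25.5% of all genes, 14.4% higher and 11.1% lower), with Twist2, Zeb2, Vim and Fn1 higher and Snai2 and Cdh2 lower in 4T1 tumors. Twist1, called between the tumors at week 6, was not called after subtraction. Without Py230 week 3 replicate 1 none of the 3 week 3 calls held: Zeb2 gave 0.378 (adjusted p = 0.0533), Vim 0.334 (adjusted p = 0.0774) and Fn1 0.728 (adjusted p = 0.125). Fn1 was called in 4 of 12 fits with a library left out, and was not without 4T1 week 3 replicate 1 (0.686, adjusted p = 0.0946). Without BALB/c gland replicate 2 of week 3, 1 of them was called, and with only the groups of the comparison in the fit none was. At week 1, 2 genes were called without 4T1 replicate 2.

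Each tumor was then followed over time. In 4T1 tumors none of the 10 was called from week 1 to 3 (0.628% of all genes; 5 with an unadjusted p under 0.05) and 9 were from week 3 to 6 (53% of all genes, 34.2% higher and 18.8% lower). Of those 9, Snai1, Twist1, Vim and Fn1 rose and Snai2, Zeb1, Zeb2, Prrx1 and Cdh2 fell, so that the inducers split between both directions. In Py230 tumors 7 fell from week 1 to 3 (20% of all genes were called, 7.17% lower): Snai2, Twist2, Zeb1, Zeb2, Prrx1, Vim and Cdh2. From week 3 to 6 Snai1 and Cdh2 rose (6.03% of all genes were called, 3.96% higher). Of the 7 falls, Cdh2 alone was called without Py230 week 3 replicate 1 (-0.352, adjusted p = 0.0185), but it was not without Py230 week 3 replicate 2 (-0.155, adjusted p = 0.169), week 1 replicate 1 (adjusted p = 0.0676) or week 1 replicate 2 (adjusted p = 0.064), and none was with only the groups of the comparison in the fit. The count of 7 was 3 to 4 without any 1 of the Py230 week 1 libraries or week 3 replicate 2. The count of 2 from week 3 to 6 was 4 without Py230 week 3 replicate 1 and 1, Cdh2, with only the groups of the comparison in the fit. In 4T1 tumors from week 1 to 3, 3 genes were called without week 3 replicate 1 and 1 without week 1 replicate 2. Glands moved little: 0 of 10 were called in either strain and interval (0.0139% and 0% of all genes in BALB/c, 0.129% and 0.217% in C57BL/6), and Snai1 alone had an unadjusted p under 0.05, in BALB/c from week 1 to 3 (0.159) and in C57BL/6 from week 3 to 6 (-0.15).

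**Figure D4:**
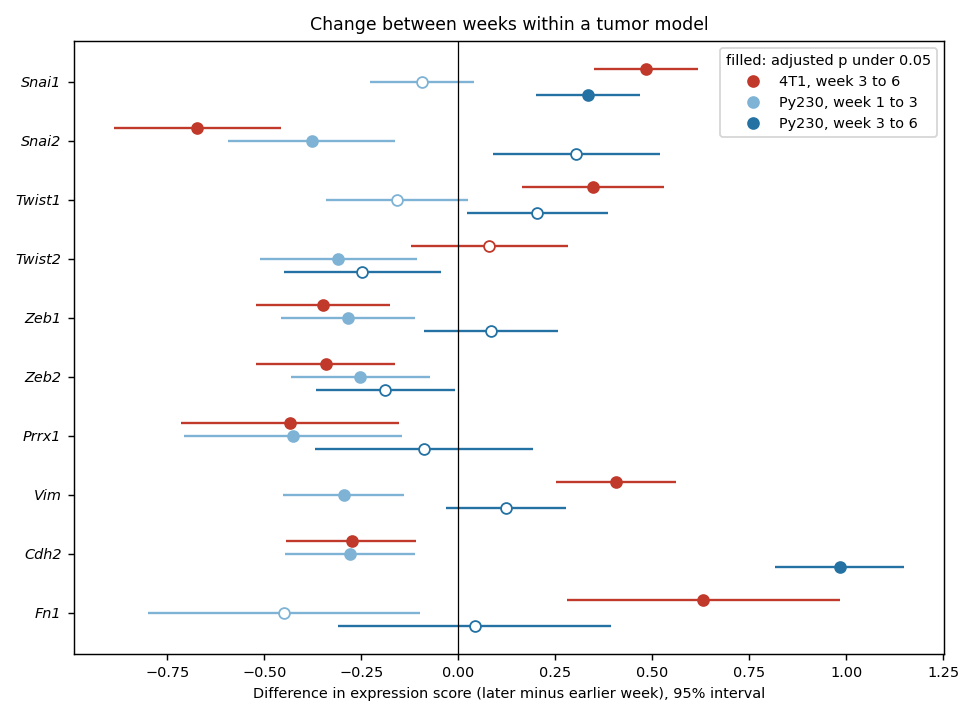
Change in score between time points (horizontal axis, SD units) for each of the 10 genes, in 4T1 tumors from week 3 to 6 and in Py230 tumors from week 1 to 3 and week 3 to 6, with bars for the 95% confidence interval from limma and filled points for an adjusted p under 0.05. In 4T1 tumors 4 genes rise and 5 fall, the 7 called Py230 changes of the earlier interval are all falls, and Cdh2 in Py230 tumors from week 3 to 6 is the widest change plotted.

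Whether the lines moved differently over time was tested as the change of the 4T1 minus Py230 difference. From week 1 to 3 it was called and positive for 4 of 10 genes (15.3% of all genes were called, 4.89% positive): Twist1, Twist2, Zeb1 and Prrx1. From week 3 to 6 it was called for 4 (26.7% of all genes, 17.8% positive and 8.88% negative), positive for Vim and negative for Snai2, Zeb1 and Cdh2. From week 1 to 6 it was called for 7 (27.4% of all genes, 15% positive and 12.4% negative), positive for Snai1, Twist1, Twist2, Vim and Fn1 and negative for Snai2 and Cdh2, and the count stayed at 7 when each library was left out. Of the 4 changes from week 1 to 3, Zeb1 alone was called without Py230 week 3 replicate 1. The change for Twist1 was called in 5 of 12 fits with a library left out, and that for Vim from week 3 to 6 in 3 of 12. With only the groups of the comparison in the fit, none was called from week 1 to 3 and 2 were from week 3 to 6.

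Other genes of the pathway were followed as lists of 12 to 20 genes, in the main fit alone. Of 20 epithelial genes, the counterpart of the mesenchymal markers, 3 were lower and none higher in 4T1 tumors at week 1, 11 lower and none higher at week 3, and 9 lower and 1 higher at week 6. Of all genes, 8.43%, 18.5% and 16.7% were lower and 11%, 11.9% and 24.1% were higher at the 3 weeks, the background for this and the next lists. The median differences of the epithelial genes were -0.0863, -0.299 and -0.195. They included the tight junction gene Tjp1 (-0.232, adjusted p = 0.0173) and the epithelial repressor of Zeb1, Ovol1 (-0.428, adjusted p = 0.029), at week 1. At week 3 the epithelial splicing factor Esrp1 (-0.758, adjusted p = 3.08e-05) and the tricellular junction gene Marveld2 (-0.529, adjusted p = 4.91e-05) were lower. At week 6 the luminal keratin gene Krt19 (-1.25, adjusted p = 3.52e-10) and Esrp1 (-0.669, adjusted p = 4.55e-05) were. Cdh1, which encodes E-cadherin and was named here after its values were seen, was 1.4, 1.04 and 1.2 in 4T1 and 1.82, 1.66 and 1.5 in Py230 tumors at week 3, where it was lower in 4T1 tumors (-0.442, adjusted p = 0.00854). At week 6 it was 1.6, 1.01 and 1.63 against 1.72, 1.7 and 1.76, with the lowest value in 4T1 replicate 2.

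Of 19 further mesenchymal genes, 4 were higher and 1 lower in 4T1 tumors at week 1, 7 higher and none lower at week 3, and 6 higher and 2 lower at week 6 (median differences -0.0185, 0.253 and 0.168). The share called was near that of all genes, 30.3% at week 3 and 40.8% at week 6. Spp1 (osteopontin) was 0.699 higher (adjusted p = 0.00818) and the fibroblast cadherin gene Cdh11 lower (-0.453, adjusted p = 0.00727) at week 1. The receptor tyrosine kinase gene Axl (0.364, adjusted p = 0.00213) and the matrix gene Tnc (0.532, adjusted p = 0.00844) were higher at week 3. At week 6 S100a4 was 0.885 higher (adjusted p = 3.81e-05) and the adhesion gene Ncam1 lower (-0.644, adjusted p = 2.17e-04), the latter in the direction of Cdh2.

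Of 14 other EMT regulators, 1 was higher and 2 lower at week 1, 1 higher and 5 lower at week 3, and 6 higher and 3 lower at week 6 (median differences -0.106, 0.00665 and 0.181), where 19.4%, 30.3% and 40.8% of all genes were called. Id2, an inhibitor of helix-loop-helix factors such as Twist, was 0.374 higher in 4T1 tumors (adjusted p = 0.0112), and Tcf4 (E2-2) lower (-0.137, adjusted p = 0.012), at week 1. Sox9 (-0.527, adjusted p = 2.91e-04) and Sox4 (-0.374, adjusted p = 0.00341), both factors of epithelial progenitors, were lower at week 3. Hmga2, a chromatin protein that induces Snai1 and Twist1, had the widest difference of any gene named here: 1.35, 1.61 and 1.17 in 4T1 tumors and -1.71, -1.91 and -1.82 in Py230 tumors at week 6 (3.19, adjusted p = 1.64e-11). At week 3 Hmga2 was -0.174 in 4T1 replicate 1 and -1.82 and -1.73 in the other two. Tcf4 was higher at week 6 (0.453, adjusted p = 1.86e-10).

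Of 12 genes of TGF-beta signaling, the best known inducing signal of EMT, 1 was higher and 4 lower at week 1, 2 higher and 2 lower at week 3, and 5 higher and 3 lower at week 6 (median differences -0.0345, -0.118 and 0.136), where 19.4%, 30.3% and 40.8% of all genes were called. The ligand gene Tgfb1 was 0.322 higher in 4T1 tumors at week 1 (adjusted p = 0.0129), and Tgfb2 was lower at week 3 (-0.594, adjusted p = 6.73e-05). The receptor gene Tgfbr2 was higher at week 3 (0.345, adjusted p = 5.19e-04). The latent TGF-beta binding protein gene Ltbp1 was lower at week 1 (-0.298, adjusted p = 0.00256) and higher at week 6 (0.668, adjusted p = 3.56e-09), and the signal transducer gene Smad3 was higher at week 6 (0.514, adjusted p = 3.27e-11).

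Markers of other cells of the gland moved with tumor growth. At week 6 all 6 adipocyte markers were lower than in glands in both tumors, where 21.5% of all genes were lower in 4T1 and 18.7% in Py230 tumors. In 4T1 tumors so were all 6 skeletal muscle markers, 6 of 8 pericyte, smooth muscle and myoepithelial markers, 4 of 9 fibroblast markers, 3 of 6 endothelial markers and 4 of 6 markers of lactating epithelium. In Py230 tumors so were 4 of 9 fibroblast, 4 of 8 pericyte, smooth muscle and myoepithelial and 5 of 6 endothelial markers. Of 8 lymphocyte and neutrophil markers 3 were higher in the 4T1 model at each week. Between 4T1 and Py230 tumors, 11%, 11.9% and 24.1% of all genes were higher at weeks 1, 3 and 6. The first fibroblast markers, Pdgfra and Dpt, averaged 1.53 and 0.556 in week 6 4T1 tumors, 1.12 and 0.844 in Py230 tumors, and 1.66 and 1.98 in BALB/c glands. Mean fibroblast marker scores at week 6 were 1.44 to 1.63 in 4T1 and 1.41 to 1.61 in Py230 tumors. Pdgfra was 1.5, 1.65 and 1.45 in 4T1 and 1.14, 1.17 and 1.05 in Py230 tumors, without overlap. Dpt went the other way on average, with overlap: 0.63, 0.516 and 0.52 in 4T1 and 0.394, 1.05 and 1.08 in Py230 tumors. The part of fibroblasts in the Vim and Fn1 differences was not tested. The adipocyte gene Adipoq averaged -0.331 in week 6 4T1 tumors against 2 in BALB/c glands, and the milk protein gene Csn2 -0.666 against 1.47. At week 1, 5 of 6 markers of lactating epithelium were higher in the 4T1 model. Their mean score was 1.51 for 4T1 and 0.908 for Py230 tumors. Control glands of that week stood apart in the same direction. Their mean was 1.39 (1.07 to 1.63) for BALB/c and 0.887 (0.687 to 1.02) for C57BL/6 glands, so the gap was not peculiar to the tumors.

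**Figure D5:**
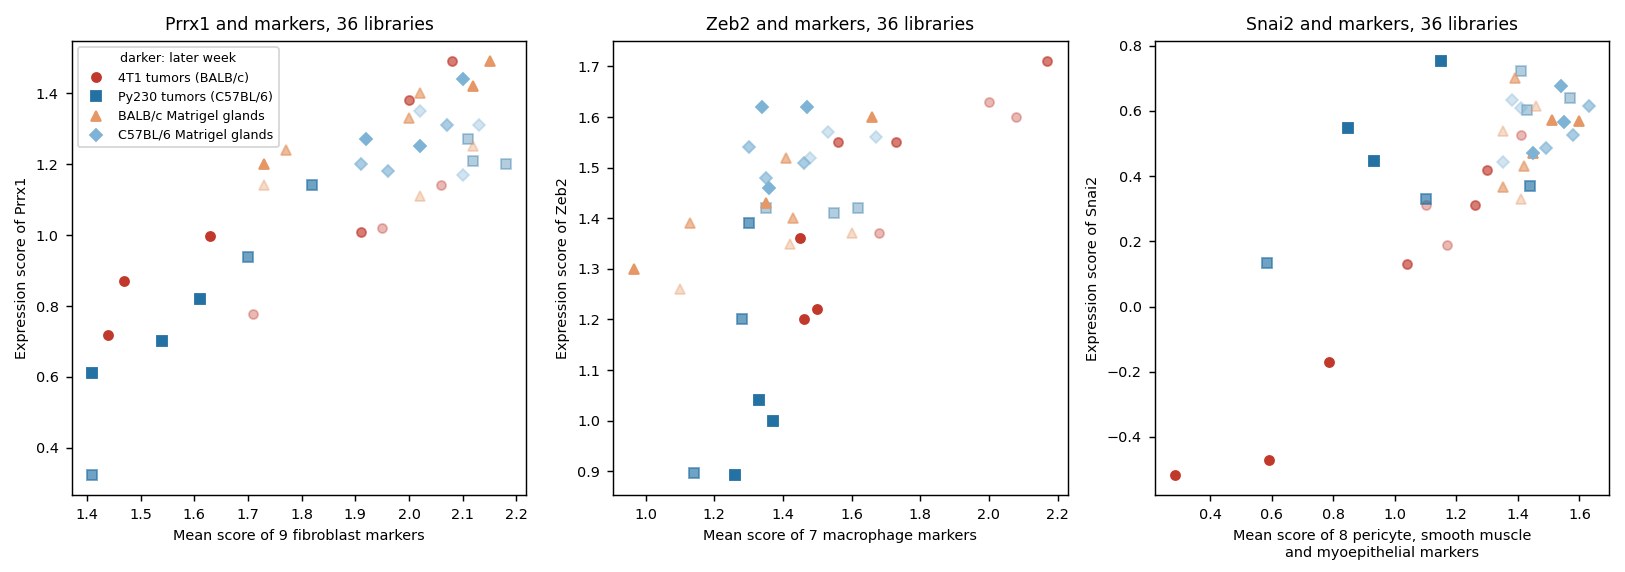
Score of Prrx1 against the mean score of 9 fibroblast markers, of Zeb2 against 7 macrophage markers and of Snai2 against 8 pericyte, smooth muscle and myoepithelial markers (both axes in SD units), in 36 libraries colored by tumor line or gland strain. Week 6 4T1 libraries lie at the lower left for Snai2, and Py230 week 3 replicate 1 has the lowest Prrx1 score, 0.324.

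Among themselves the 10 genes fell into a few shared patterns over the 12 group means, given as description, since groups share strain, line and time. Vim and Fn1 had a correlation of 0.96, Zeb1 and Prrx1 of 0.887, and Zeb2 and Prrx1 of 0.818, while Snai2 and Fn1 had -0.79. For Zeb1 and Prrx1 the correlation of deviations within groups was 0.885, so they also varied together between libraries of 1 group. In the order of the 12 group means, neighbors differed by the test at 5 steps: those given above for Snai2, Vim and Cdh2, the step from 4T1 at week 6 to 4T1 at week 3 for Fn1 (3.33 to 2.69, adjusted p = 0.00311), and the step from Py230 at week 6 to Py230 at week 1 for Snai1 (0.574 to 0.332, adjusted p = 0.00484). All other neighbors, and every neighbor for Twist1, Twist2, Zeb1, Zeb2 and Prrx1, were not called apart. The top and bottom groups were 4T1 at week 6 (0.921) and 4T1 at week 1 (0.342) for Twist1, 4T1 at week 6 (-0.414) and Py230 at week 6 (-1) for Twist2, C57BL/6 glands at week 6 (1.03) and 4T1 at week 6 (0.557) for Zeb1, 4T1 at week 3 (1.61) and Py230 at week 6 (0.977) for Zeb2, and BALB/c glands at week 6 (1.37) and Py230 at week 6 (0.712) for Prrx1.

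The genes most like each member, by Pearson correlation over the 12 group means, were named by rank alone. The search covered 13566 other genes whose mean normalized count, as deposited with the week 1 comparison, was 100 or more. Snai2 was nearest to Ism1 (0.983), Irx4 (0.979) and Trp63 (0.976), the last of which encodes p63, a factor of basal epithelium. Prrx1 was nearest to Foxj2 (0.99), Tbx18 (0.985) and Ablim1 (0.983), Zeb2 to Pid1 (0.967) and Celf2, and Zeb1 to Jam3 (0.978), Cep85l and Lrig3. Vim was nearest to Asap1 (0.971), Rbms1 and Eps8, and Fn1 to Rbpj-ps3 (0.972), Mnt and Asap1 (0.971), so that Asap1 stood in both lists. Snai1 was nearest to Camsap1 (0.956) and Ppp2r2a, Twist1 to Adamtsl3 (0.948), Setd1a and 9930021J03Rik, and Twist2 to Rnf146 (0.956), Pcolce2 and Otud1. Cdh2 had the loosest neighbors, Col13a1 (0.918), Gria3 (0.9) and Ttyh2 (0.88).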

How the data were processed

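Each of the 36 libraries was made from the RNA of 1 tumor or Matrigel gland by a strand-specific protocol and sequenced in pairs; groups came from the labels. The authors mapped reads to mm10 with STAR, counted them per gene with summariseOverlaps and normalized them with DESeq2; versions, the annotation and the step that made the scores are not given in the sources used here. The deposited values used here are standardized scores of 21650 genes, with a mean of 0 and an SD of 1 in each library; 5384 genes without a symbol were named from the reference. Columns of the authors' own comparisons hold fold changes and p-values and were not used, except for the mean normalized count deposited with the week 1 comparison. That count, a value over samples on another scale, set 1 alternative filter. It also chose the genes behind the common median scaling and the genes searched for likeness. Because the table holds scores, no count test could be run. Standardizing a library ties each score to the spread of all its genes, so a change in many genes moves the rest.

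One limma model (version 3.58.1, R 4.3.3, with trend and robust variance) gave each of the 12 groups a mean, so that all groups share the estimate of spread, and 26 contrasts were tested two-sided with Benjamini-Hochberg adjustment over all 21650 genes and a threshold of 0.05. Errors are SD over 3 libraries or the model's SE. The model was tested on simulated data. The labels do not state that replicate numbers pair samples, and the main fit took samples as unpaired. Of 60 same-numbered pairs of groups, 23 had correlated deviations over 0.1, and the correlations ranged from -0.466 to 0.789. Pairs of unlike number were not computed, so these values cannot decide whether samples of 1 number are related. The highest correlation between libraries was 0.993, and no libraries were merged.

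The 10 genes and the lists of other genes were chosen with earlier results of these data known. Genes named beside the 10 were, from each EMT list and week, the 2 with the smallest p between tumors, the first 2 markers of cell lists where levels are given, and the 3 genes most like each of the 10, some of which are not reported here. Alternatives were cyclic loess, a common median and median absolute deviation, a minimum mean normalized count of 100, no trend or robust variance, only the groups of a comparison in the fit, a replicate block and each library left out. Promoter windows are RefSeq sequences of GRCm38.p6, and gene coordinates are from GENCODE vM21 (mm10).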

Additional observations from a re-analysis of the deposited data

Results flagged for a closer look

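The difference between 4T1 and Py230 tumors changed with time, by limma's test of the change itself, for several of the 10 genes. From week 1 to 3 the changes called were Twist1 0.39, Twist2 0.518, Zeb1 0.506 and Prrx1 0.745. From week 3 to 6 they were Snai2 -0.977, Zeb1 -0.434, Vim 0.284 and Cdh2 -1.26. From week 1 to 6 they were Snai1 0.379, Snai2 -0.653, Twist1 0.533, Twist2 0.845, Vim 0.472, Cdh2 -0.994 and Fn1 1.15. Zeb1 was called in both short intervals with opposite signs and had a change of 0.0723 (adjusted p = 0.703) from week 1 to 6.

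The difference between tumor and Matrigel gland also differed between the line-and-strain pairs. At week 3 this was called for Zeb2 0.512, Vim 0.422 and Fn1 0.811. At week 6 it was called for Snai2 -0.933, Twist2 0.512, Zeb2 0.416, Vim 0.669, Cdh2 -1.04 and Fn1 1.32. The 9 values of these 2 weeks and the 15 values over time share tumor libraries. With 3 libraries in each group, no group was tested for an outlying sample.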

How the results depend on the processing

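With only the groups of a comparison in the fit, the number of the 10 genes called was 2 in place of 4 between the tumors at week 1 and 0 in place of 6 at week 3. It was 0 in place of 4 and 2 in place of 4 for the change of that difference from week 1 to 3 and week 3 to 6. It was 0 in place of 1 for 4T1 tumors against glands at week 1, 0 in place of 4 for Py230 tumors against glands at week 3, 0 in place of 3 after subtraction of the strain difference at week 3, and 0 in place of 7 and 1 in place of 2 in Py230 tumors from week 1 to 3 and week 3 to 6. That fit has fewer samples from which to estimate the spread, but it did not always call fewer genes. Over all genes it called 434 in place of 6569 between tumors at week 3, and 9910 in place of 8837 at week 6. The SD of Prrx1 at week 3 was 0.423 in Py230 and 0.251 in 4T1 tumors, against 0.0777 and 0.0696 in BALB/c and C57BL/6 glands. Where groups vary more than the rest, the spread shared by all 12 groups can make their p-values too small. Leaving out each library, the counts between tumors ran from 1 to 6 at week 1 and from 3 to 7 at week 3, and for the change from week 1 to 3 from 2 to 5. Against glands they ran from 0 to 5 and 0 to 2 in 4T1 tumors at weeks 1 and 3 and from 1 to 7 in Py230 tumors at week 3, and after subtraction from 0 to 2 at week 1 and 0 to 4 at week 3. Over time they ran from 0 to 3 in 4T1 tumors from week 1 to 3, and from 1 to 8 and 2 to 4 in the 2 intervals of Py230 tumors. The week 6 counts, between tumors and against glands, stayed within 1.5 times of their values. Between tumors at week 3, where neither gene was called, the difference turned sign for Snai1 (-0.1 to 0.0277) and Snai2 (-0.0623 to 0.0879) with single libraries left out, among them -0.0563 and -0.00211. The replicate block moved no count by over 1.5 times: of 90 values followed 87 kept sign and side of the threshold, Twist2 at week 3 (0.259, adjusted p = 0.0522) and Vim in the change from week 3 to 6 (0.284, adjusted p = 0.0551) lost their calls, and Zeb1 at week 6 (-0.199, adjusted p = 0.0457) gained one. With cyclic loess 87 of the 90 also kept both, Zeb1 at week 6 being called (-0.227, adjusted p = 0.0476), and with a common median and median absolute deviation 87 did, Vim in the change from week 3 to 6 losing its call (0.152, adjusted p = 0.289). The share of higher genes among all called moved by over 10 percentage points in several comparisons, between tumors from 39.1% to 50.7% at week 3 with the common median and from 59.1% to 49% at week 6 with cyclic loess. In 4T1 tumors from week 3 to 6 it moved from 64.6% to 48.6%, and against glands at week 6 from 64.2% to 50.6%. No scaling moved the median of all genes by over 0.1. The cause of these shifts was not tested.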
